A study of Homo sapiens with 6 samples.

Results

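The G1 cyclins, kinases and inhibitors were read on 6 single-colour arrays of MM1S, an established cell line from human multiple myeloma, the cancer of plasma cells. The arrays were 3 of MM1S cells in hypoxia, with an exposure of 24 h, and 3 of MM1S cells in normoxia; neither the oxygen concentration nor any other treatment is given in the sources used here, and the 24 h text stands on the normoxia arrays too. The members were the probe sets annotated to 1 of 10 listed symbols alone, with every probe set kept separate. This gave 26 of the 54613 probe sets, for 9 of the 10 genes. CDK6 was read by 7 probe sets, CDKN1C by 5, CCND2 by 4, CDC25A by 3, CCND1 and CCND3 by 2 each, and CDK4, CDKN1A and CDKN1B by 1 each. CDKN2C, the INK4-class inhibitor of the list, is listed by the annotation under no probe set of its own and was not analysed here.

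Progress from G1 into S phase starts when D-type cyclins bind the kinases CDK4 and CDK6 and phosphorylate the retinoblastoma protein, which releases E2F transcription factors. The phosphatase CDC25A then removes inhibitory phosphates from CDK2, the kinase that works with E-type cyclins. Inhibitors of the Cip/Kip class, encoded by CDKN1A, CDKN1B and CDKN1C, bind cyclin-kinase complexes and can halt the cycle in G1. Myeloma cells usually express at least one D-type cyclin, and in lines with a MAF translocation, MM1S among them, MAF drives CCND2.

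Promoter sequence is shown for 3 of these genes, chosen with both the motifs and the changes known, so that the letters known to be read by MYC, E2F and the hypoxia-inducible factors can be seen beside the values. RefSeq (GRCh38.p14) gave windows for 7 of the 10 genes, with none for CCND1, CCND2 or CDKN1C in the table used. Each line below holds the 250 bases before the annotated start on the strand of the gene, and capitals mark CACGTG (the E-box of MYC), ACGTG or GCGTG (the core of hypoxia-response elements) and 4 words of E2F factors, TTTGGCGC, TTTCCCGC, TTTCGCGC and TTTGCCGC, each searched on both strands.
CDK4, chr12:57752311-57752560, minus strand: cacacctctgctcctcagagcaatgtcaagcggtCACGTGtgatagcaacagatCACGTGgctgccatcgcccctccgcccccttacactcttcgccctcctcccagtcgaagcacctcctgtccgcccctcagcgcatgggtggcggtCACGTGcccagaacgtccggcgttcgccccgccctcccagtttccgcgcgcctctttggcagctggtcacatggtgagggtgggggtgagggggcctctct
CDC25A, chr3:48188418-48188667, minus strand: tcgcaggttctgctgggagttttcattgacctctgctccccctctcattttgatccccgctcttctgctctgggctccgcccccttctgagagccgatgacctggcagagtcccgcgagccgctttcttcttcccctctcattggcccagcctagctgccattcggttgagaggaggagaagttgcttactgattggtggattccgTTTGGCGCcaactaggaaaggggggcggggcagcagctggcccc
CDKN1B, chr12:12717118-12717367, plus strand: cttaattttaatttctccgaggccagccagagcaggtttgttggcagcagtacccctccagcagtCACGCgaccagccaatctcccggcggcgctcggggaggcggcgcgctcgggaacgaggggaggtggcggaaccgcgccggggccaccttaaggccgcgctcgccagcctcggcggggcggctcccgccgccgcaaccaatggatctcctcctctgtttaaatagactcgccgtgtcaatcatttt
The CDK4 window held the E-box 3 times, with first bases 216, 196 and 101 bases before the start. Each E-box also contains the first of the hypoxia-response cores, on both strands. At least 1 E-box occurred in 6.34% of 35116 windows of this length and 3 or more in 0.0797%. The count of 3 is that of the CDK4 window, itself chosen with its motifs known, so the last share is a description and not a test. The CDC25A window held 1 E2F word, TTTGGCGC, starting 44 bases before the start, against 2.79% of all windows with any of the 4 words. The CDKN1B window held the second core once, on the opposite strand, and 43.2% of all windows held either core. The second core was also in the window of CDKN1A, which did not pass, and in 1 of the 3 windows of CCND3, which fell. A window of CDK6 held 3 cores, and each window of CDKN2C held at least 1. Cores were thus seen in windows of genes that rose, fell or did not pass. With no window for CDKN1C, CCND1 or CCND2, whether cores go with the direction of change was not tested. GTAAACA, the word of FOXO factors, was in none of the 3 windows and in 2.98% of all windows. The 3 windows of CCND3, which also fell, held no E-box and no E2F word, and of the 3 windows of CDKN2C, which was not measured here, 2 held an E-box. These are matches of letters, and binding was not measured.

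The arrays of the 2 conditions were similar in brightness, with array medians of 57.6 to 60.1 in hypoxia and 54.95 to 56.8 in normoxia. Intensities below are given per array in the order of the replicate numbers 0, 1 and 2, and changes are differences of mean log2(intensity + 16), hypoxia minus normoxia, where the added 16 shrinks those of dim probe sets. Called means a limma p-value of at most 0.05 after Benjamini-Hochberg adjustment over all probe sets. The labels do not say that replicates were separate cultures, so each p-value reflects just how these arrays vary, which may be technical. Precision is limited by having 3 arrays in a group. In bulk RNA, fewer cells of a cycle stage and less transcript per cell cannot be told apart. All 8 plasma cell markers on the list were measured, with summed intensities of 50828 to 52679 in hypoxia and 46980 to 49025 in normoxia. Of these 8, only MAF was called higher, at 12186 ± 183 in hypoxia and 7717 ± 216 in normoxia. It is part of these sums, so the higher sums in hypoxia do not show a general rise of the markers. CD38, SDC1 and MZB1 fell and 4 did not pass, with a median change of -0.045 over the 8. CD38 was at 198 ± 12.5 in hypoxia and 335 ± 23.3 in normoxia, and SDC1 at 3126 ± 108 and 3862 ± 60.5 (SD, n = 3 each). MZB1, at 5850.3 ± 236 in hypoxia and 6988 ± 150.04 in normoxia, lost its call under 10 of 15 alternatives, each left-out array and the replicate number as a block among them (limma adjusted p = 0.0564 with the block and up to 0.110). SDC1 lost its call without hypoxia replicate 1 or 2 or normoxia replicate 1 or 2 (limma adjusted p = 0.0548, 0.0603, 0.0565 and 0.0584). Markers of T cells (3), myeloid cells (3), fibroblasts (3) and epithelium (4) had mean intensities of 6.6 to 142 over all arrays. Their sums for a cell type were at most 303 in hypoxia and 264 in normoxia. Of these, EPCAM rose, at 67.3 ± 9.97 in hypoxia and 24.8 ± 4.04 in normoxia, as did CD3D, at 132 ± 7.73 and 98.3 ± 14.9, and the other 11 did not pass. CD3D lost its call under 10 of 15 alternatives, those without hypoxia replicate 0, 1 or 2 or normoxia replicate 0 or 2 among them (limma adjusted p = 0.0927, 0.138, 0.0924, 0.132 and 0.142). The part of these cell types in the results was not tested. HBB, an erythroid marker, was brighter, at 1125 ± 27.7 in hypoxia and 1751 ± 128 in normoxia. Of the 3 measured B cell markers, PAX5 rose at 1 of 2 probe sets, with 303 ± 21.0 in hypoxia and 85.8 ± 2.37 in normoxia, and MS4A1 fell at 4 of 4, with 66.9 ± 9.99 and 246 ± 1.95 at the brightest. CR2 fell at its brighter probe set, with 227 ± 26.0 in hypoxia and 504 ± 9.69 in normoxia, and rose at its other one, with means of 24.8 and 6.12.

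CDC25A, CCND1 and CDK4 fell in hypoxia, as did CCND3 at 1 of its 2 probe sets and CCND2 at 3 of its 4. CDKN1C rose at 4 of 5 probe sets, to 10.5 times its normoxia mean at the brightest, and CDKN1B rose to 1.42 times. CDK6 rose at 2 of 7 probe sets, and CDKN1A did not pass. Of the 26 probe sets, 7 (26.9%) rose and 10 (38.5%) fell, while 9 did not pass; over all probe sets the shares were 15.5% and 15.2%, or 30.7% called in either direction. Bright probe sets were called more often: at a mean intensity of at least 64 the shares over all probe sets were 26.2% and 27%, or 53.2% in either direction, and 17 of the 23 member probe sets at that level were called. The 3 dimmer ones, 1 each of CCND3, CDK6 and CDKN1C, did not pass. The 2 groups of arrays did not overlap for 19 of the 26, 7 higher and 12 lower in hypoxia, against 42.5% of all probe sets, or 21.6% higher and 20.9% lower. The median change was -0.14 over the 26 and 0.017 over all probe sets.

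**Figure D1:**
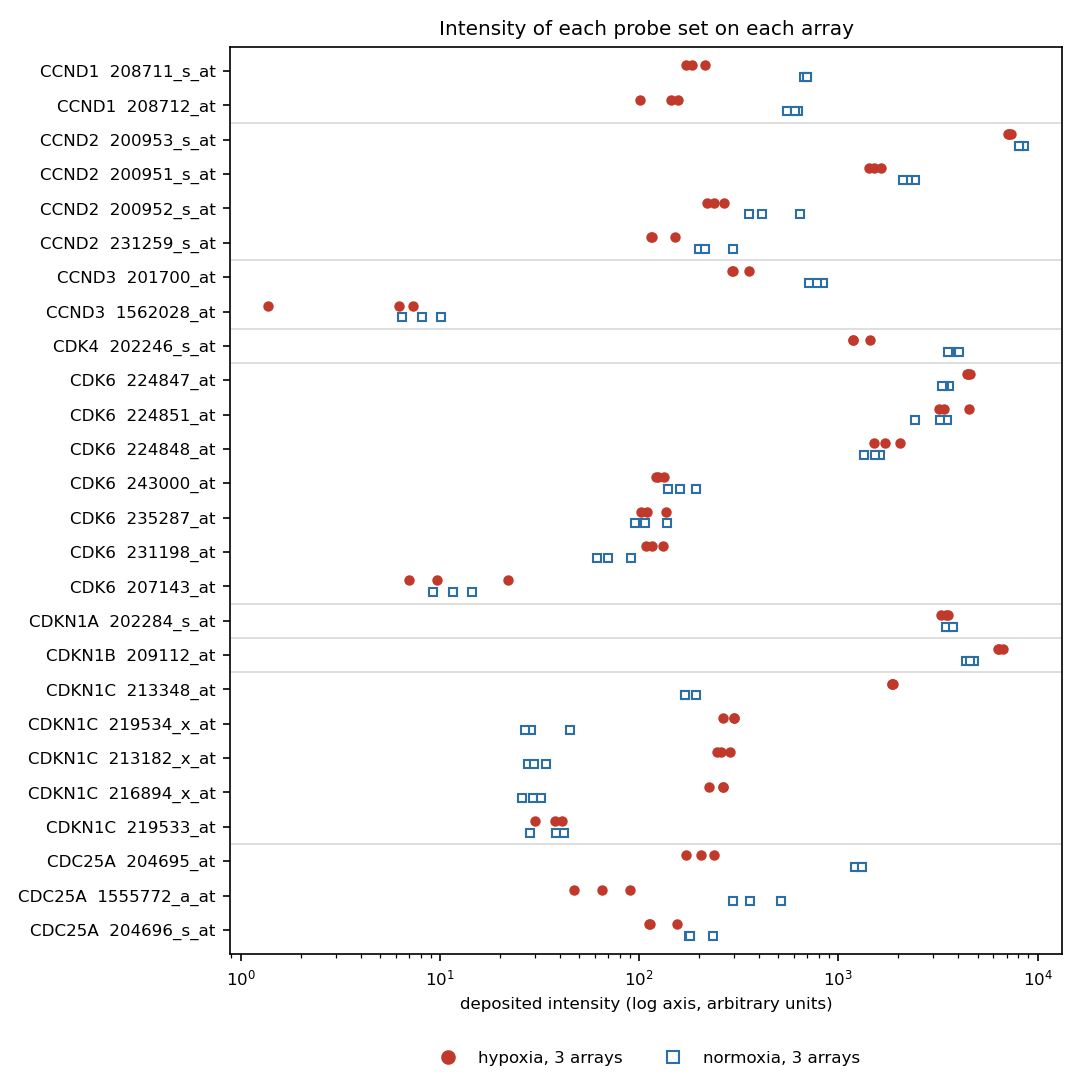
Deposited intensity (log axis) of each of the 26 probe sets on each array, with hypoxia as filled circles above and normoxia as open squares below. CDKN1C probe sets other than 219533_at lie to the right in hypoxia, and those of CCND1, CDK4 and CDC25A lie to the left.

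The D-type cyclins were lower in hypoxia at 6 of their 8 probe sets. CCND1, the D-type cyclin activated by translocation in other myelomas, was read at 214, 172 and 184 in hypoxia and at 693, 674 and 692 in normoxia by probe set 208711_s_at. Every hypoxia array lay far below every normoxia array at this probe set. Its change was -1.78 (95% confidence interval -2.00 to -1.55, limma adjusted p = 9.28e-05), and the other CCND1 probe set, 208712_at, gave 101, 157 and 145 in hypoxia against 553, 627 and 609 in normoxia (change -2.05, limma adjusted p = 0.000288). Both read the fall in the same direction, with hypoxia means at 27.7% and 22.5% of the normoxia means.

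CCND3, another D-type cyclin, gave 357, 295 and 292 in hypoxia and 837, 713 and 785 in normoxia by 201700_at. The arrays did not overlap, and the change was -1.27 (limma adjusted p = 0.000399). Its other probe set, 1562028_at, lay between 1.37 and 10.2 on every array and did not pass (change -0.22).

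CCND2 fell at 3 of its 4 probe sets. The brightest, 200953_s_at, was at 7312, 7158 and 7102 in hypoxia and at 8563, 8109.7 and 8085 in normoxia. All hypoxia arrays were below all normoxia arrays, yet the change of -0.20 (95% confidence interval -0.36 to -0.036) did not pass (limma adjusted p = 0.0724). It passed under 5 of 15 alternatives, with adjusted p between 0.00184 and 0.182 over all of them. The next, 200951_s_at, gave 1630.0, 1516 and 1426 in hypoxia and 2415, 2243 and 2115 in normoxia, a change of -0.56 (limma adjusted p = 0.00424). The remaining 2 also fell: 231259_s_at by 0.81, with means of 127 ± 20.6 in hypoxia and 237 ± 51.6 in normoxia, and 200952_s_at by 0.87, with means of 241 ± 24.9 and 468 ± 150.4 (SD, n = 3 each; limma adjusted p = 0.0149 and 0.0271). The call of 200952_s_at was lost without hypoxia replicate 0, 1 or 2 or normoxia replicate 2 (limma adjusted p = 0.0828, 0.0568, 0.0782 and 0.0577) and without both arrays numbered 0 (0.0647). That of 231259_s_at was lost without hypoxia replicate 1 or 2 (limma adjusted p = 0.0559 and 0.0554). Averaged over the 4 probe sets, CCND2 fell by 0.61 (limma adjusted p over genes = 0.000901).

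MAF, which activates CCND2 in this subtype of myeloma, rose in the same cells, with 12186 ± 183 in hypoxia and 7717 ± 216 in normoxia (change 0.66, limma adjusted p = 0.000666). All 6 of its probe sets rose.

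The 2 partner kinases of the D-type cyclins differed, with a fall of CDK4 and no probe set of CDK6 called lower. CDK4 gave 1447, 1187 and 1179.6 in hypoxia and 4047, 3604 and 3553 in normoxia, so that its hypoxia mean was 34.0% of the normoxia mean (change -1.55, 95% confidence interval -1.82 to -1.28, limma adjusted p = 0.000210). In both conditions array 0 was the highest. Its probe set, 202246_s_at, is the only one for the gene.

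CDK6 was called higher at 2 of its 7 probe sets. The brightest, 224847_at, gave 4585, 4499 and 4420.4 in hypoxia against 3579.9, 3398 and 3306 in normoxia (change 0.39, 95% confidence interval 0.22 to 0.56, limma adjusted p = 0.00657). Hypoxia and normoxia arrays did not overlap there, nor at 231198_at, which was at 108, 132 and 116 in hypoxia and at 61.1, 90.7 and 70.1 in normoxia (change 0.59, limma adjusted p = 0.0222). That second call was lost without hypoxia replicate 1 or 2, without normoxia replicate 0 or 2 (limma adjusted p = 0.0744, 0.0623, 0.0585 and 0.0743) and without both arrays numbered 0 (0.0752). Of the bright sets, 2 overlapped between conditions. Probe set 224851_at was at 4532, 3402 and 3202 in hypoxia and 3514, 3243 and 2435 in normoxia (change 0.28, 95% confidence interval -0.19 to 0.74), and 224848_at at 2048, 1721 and 1518 in hypoxia and 1609.6, 1534 and 1348 in normoxia (change 0.23, 95% confidence interval -0.10 to 0.55). At these 3 bright sets the array numbered 0 was the highest and that numbered 2 the lowest in each condition. Among the rest, 243000_at was at -0.33 without overlap (limma adjusted p = 0.0910). It passed as lower without normoxia replicate 0 and with dim probe sets left out (limma adjusted p = 0.0405 and 0.0353). Probe set 235287_at was at 0.029, and 207143_at lay between 7.02 and 22.1 on every array. Over the mean of its 7 probe sets CDK6 did not pass (change 0.17, 95% confidence interval -0.051 to 0.40, limma adjusted p over genes = 0.219), so the rise given for CDK6 rests on 2 of 7 probe sets.

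**Figure D2:**
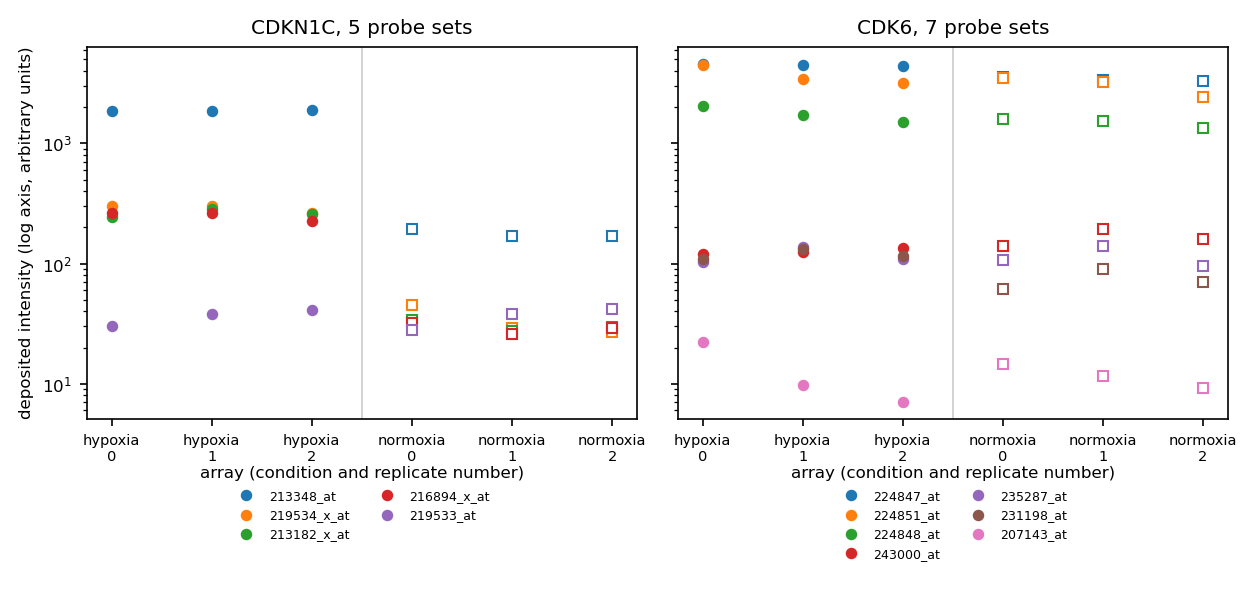
Deposited intensity (log axis) on each array, by condition and replicate number, for the 5 probe sets of CDKN1C and the 7 of CDK6, with hypoxia filled and normoxia open. For CDKN1C, 4 probe sets are higher on all hypoxia arrays and 219533_at stays between 28.2 and 41.8, while of the CDK6 sets only 224847_at and 231198_at are higher past the threshold.

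The Cip/Kip inhibitors responded unequally, and CDKN1C carried the largest change of the 26 probe sets. CDKN1C encodes Kip2, an inhibitor whose gene is imprinted and expressed mainly from the maternal copy. Its brightest probe set, 213348_at, gave 1859, 1867 and 1883 in hypoxia and 193, 171 and 169.6 in normoxia. The hypoxia mean of 1869.6 ± 12.2 was 10.5 times the normoxia mean of 178 ± 13.5, a change of 3.28 (95% confidence interval 3.09 to 3.47, limma adjusted p = 5.08e-05), which ranked 14 among the rises of all 54613 probe sets.

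Of the other CDKN1C probe sets, 3 also rose. These were 219534_x_at, at 299, 300.1 and 264 in hypoxia and 44.8, 28.8 and 26.7 in normoxia (change 2.64), 213182_x_at, at 245, 286 and 258 against 34.2, 27.7 and 29.8 (change 2.58), and 216894_x_at, at 263, 265 and 224 against 32.2, 25.8 and 29.2 (change 2.56). Their adjusted p in limma was 0.000111, 5.43e-05 and 5.45e-05, and each hypoxia mean was 8.61 to 8.62 times the normoxia mean. The suffix x marks probe sets in which some probes may match other transcripts. In normoxia these 3 lay below the array medians, so the size of their change is uncertain. The fifth, 219533_at, was at 30.1, 37.7 and 40.9 in hypoxia and 28.2, 38.4 and 41.8 in normoxia (change 0.0077, 95% confidence interval -0.32 to 0.34). It is annotated to the same RefSeq transcript as 219534_x_at, and its level on all 6 arrays was below the array median.

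CDKN1B, encoding Kip1, which is abundant in resting lymphoid cells, gave 6699, 6427 and 6355 in hypoxia and 4777, 4389.5 and 4561 in normoxia. Every hypoxia array was above every normoxia array, and the change was 0.50 (95% confidence interval 0.33 to 0.68, limma adjusted p = 0.00263), a mean 1.42 times that of normoxia. CDKN1A, encoding Cip1, gave 3273, 3469.5 and 3542 in hypoxia and 3599.6, 3461 and 3769 in normoxia. These ranges overlapped, and the change of -0.074 (95% confidence interval -0.25 to 0.11) did not pass (limma adjusted p = 0.537).

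CDC25A, the activating phosphatase, had the largest fall of the 26. Probe set 204695_at gave 172, 239 and 205 in hypoxia and 1302, 1212 and 1319 in normoxia. Its hypoxia mean was 16.1% of the normoxia mean, a change of -2.56 (95% confidence interval -2.86 to -2.26, limma adjusted p = 7.55e-05), which ranked 30 among all falls. By 1555772_a_at it was at 90.5, 64.9 and 46.9 in hypoxia and 516, 360.0 and 297 in normoxia (change -2.28, limma adjusted p = 0.00117). The third, 204696_s_at, fell less, with 114, 112 and 155 in hypoxia and 179, 179.5 and 235 in normoxia (change -0.58, limma adjusted p = 0.0367). That last call was lost with a pseudocount of 1 (limma adjusted p = 0.0561), without hypoxia replicate 0 or 1 (0.103 and 0.113), without normoxia replicate 0, 1 or 2 (0.0622, 0.0691 and 0.0961) and without both arrays numbered 0 (0.143).

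**Figure D3:**
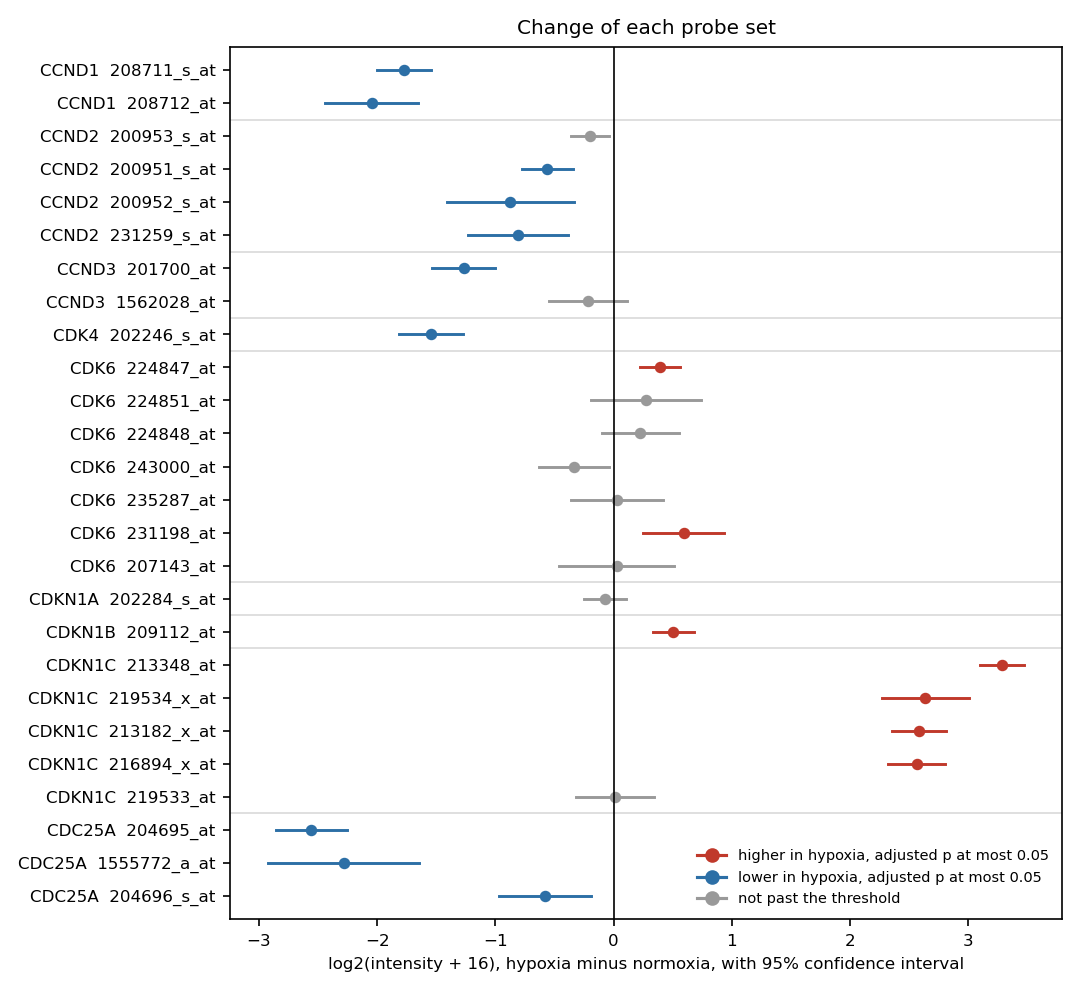
Change of each of the 26 probe sets as hypoxia minus normoxia of log2(intensity + 16), with its 95% confidence interval from limma. The CDKN1C probe set 213348_at at 3.28 and the CDC25A probe set 204695_at at -2.56 mark the ends of the range.

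Members of one family were compared within each array, by the log2 value of one member's brightest probe set minus that of the other, over 7 pairs. CDKN1C minus CDKN1A was -0.87 ± 0.050 in hypoxia and -4.23 ± 0.12 in normoxia (SD, n = 3 each), a difference of 3.36 between the conditions, and that for CDKN1C minus CDKN1B was 2.78. CDKN1A minus CDKN1B was -0.92 ± 0.099 in hypoxia and -0.34 ± 0.066 in normoxia, a difference of -0.58. Among the cyclins, the difference between conditions was 1.58 for CCND2 minus CCND1, 1.07 for CCND2 minus CCND3 and -0.51 for CCND1 minus CCND3. The CCND2 probe set used, 200953_s_at, was the 1 of its 4 that did not pass. Averaged over probe sets, the changes were -0.61 for CCND2, -1.91 for CCND1 and -0.74 for CCND3. The CCND3 average includes 1562028_at, with means of 4.98 in hypoxia and 8.26 in normoxia. CDK6 minus CDK4 was 1.82 ± 0.14 in hypoxia and -0.12 ± 0.048 in normoxia, a difference of 1.94. The CDK6 probe set used was 1 of the 2 called higher, and the mean of its 7 probe sets did not pass (change 0.17). No pair overlapped between the conditions, and each gave p = 0.1 in an exact two-sided permutation test, before and after adjustment over the 7 pairs, which is the smallest p that 3 against 3 arrays allow; the test cannot pass 0.05 in this design.

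Other genes of the G1/S pathway were read from lists, each gene by its brightest probe set, for which 15.6% of 19775 genes rose and 19.1% fell (34.6% in either direction). Over all probe sets with a mean intensity of at least 64 the shares were larger, at 26.2% and 27% (53.2% in either direction). Over all related lists, without the cell type markers, 33 of 75 measured genes (44%) were called. Of 15 further cyclins, kinases and inhibitors measured, 1 rose, 5 fell and 9 did not pass, with a median change of -0.17 beside -0.00016 over all genes. CCNE1 and CCNE2, the E-type cyclins that follow the D-type ones, were at 459 ± 33.2 and 84.4 ± 2.77 in hypoxia and at 2107 ± 36.8 and 402 ± 37.4 in normoxia (change -2.16 and -2.06, limma adjusted p = 5.43e-05 and 6.16e-05). The other probe set of CCNE1, at 28.2 in hypoxia and 19.1 in normoxia, did not pass. Their kinase CDK2 was at 706 ± 71.2 in hypoxia and 1607 ± 131 in normoxia (change -1.17, limma adjusted p = 0.000496). CCNH, a subunit of the CDK-activating kinase, rose by 0.34 (limma adjusted p = 0.00873). The other subunits of that kinase, named after their values were seen, did not rise past the threshold. CDK7 fell by 0.23 (limma adjusted p = 0.0441) and MNAT1 did not pass (change 0.22). The other INK4 genes measured, CDKN2A, CDKN2B and CDKN2D, named after their values were seen, did not pass (change 0.12, 0.15 and 0.20).

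Among pocket proteins and E2F factors, 7 of 13 fell, 1 rose and 5 did not pass, with a median change of -0.79. E2F2 was at 561 ± 39.8 in hypoxia and 1650.1 ± 106.5 in normoxia, and its DNA-binding partner genes TFDP1 and TFDP2 fell by 1.25 and 1.66. E2F6, a repressor of the family, fell by 1.29. RB1 itself was at 2316 ± 61.0 in hypoxia and 2070.4 ± 45.5 in normoxia and did not pass at its brightest probe set (change 0.16, limma adjusted p = 0.130), while its other one rose by 0.50 (limma adjusted p = 0.0403). The first passed with a pseudocount of 64, with dim probe sets left out and with an intensity trend (limma adjusted p = 0.0441, 0.0356 and 0.0135). The 1 gene that rose, RBL2, named after its value was seen, was at 0.60 and encodes a pocket protein of resting cells.

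Of 17 genes that control the stability of G1 cyclins and inhibitors, 3 rose, 5 fell and 9 did not pass (median -0.12). DTL, the receptor through which a CUL4 ubiquitin ligase recognises Cip1 in S phase, was at 1178 ± 70.4 in hypoxia and 4084 ± 218 in normoxia. SKP2, which directs the destruction of Kip1 and Kip2, was at 1137 ± 79.7 in hypoxia and 2512 ± 14.6 in normoxia (change -1.13, limma adjusted p = 0.000180), although 2 of its 3 probe sets did not pass in that direction. FBXO4 fell by 1.27, and FBXW7, the receptor for cyclin E and MYC, rose by 0.83. Of 15 transcription factors known to act on members, 6 rose, 1 fell and 8 did not pass (median 0.25). The one that fell was MYC, at 3098 ± 83.4 in hypoxia and 7539.6 ± 225 in normoxia (change -1.28, limma adjusted p = 9.28e-05). Its antagonist MXI1 rose by 1.68, and BCL6, a repressor of CCND2 in B cells, rose by 1.79 at 1 of its 3 probe sets. There BCL6 was at 157 ± 23.1 in hypoxia and 33.7 ± 0.827 in normoxia, the latter below the array medians. The size of the BCL6 change is therefore uncertain, at 1.17 to 2.17 over the alternatives.

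**Figure D4:**
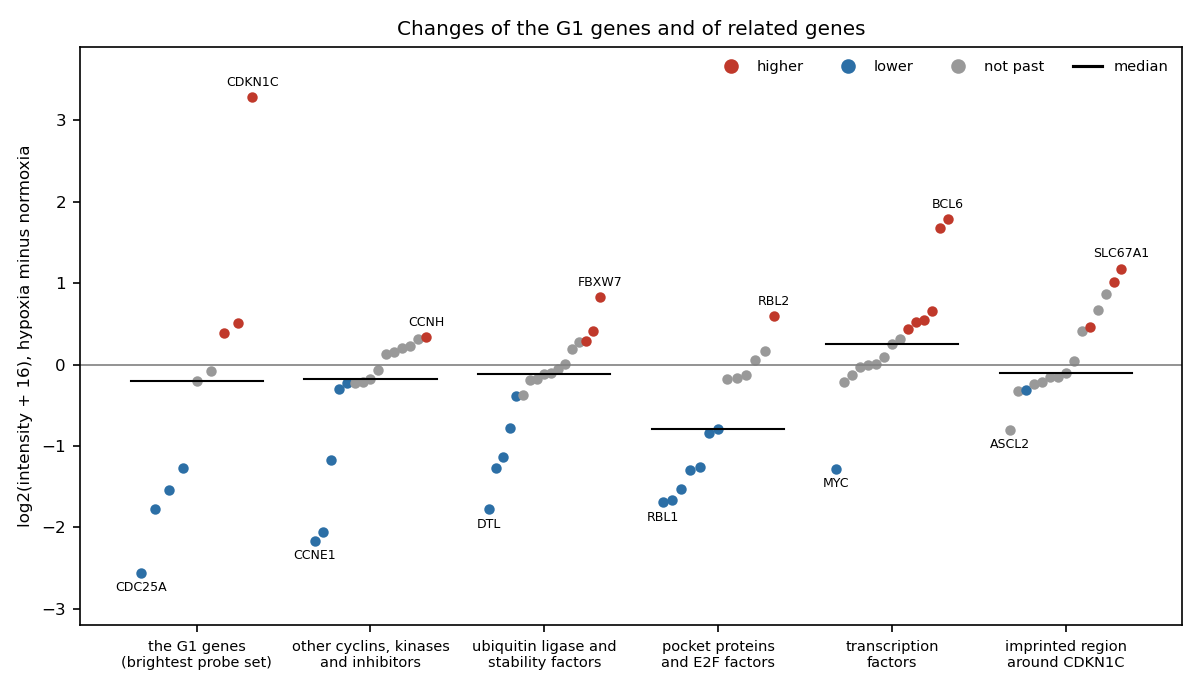
Change (hypoxia minus normoxia, log2(intensity + 16)) of the brightest probe set of each G1 gene and of the genes of 5 related lists, with the lowest and highest gene of each named and the median as a line. The median of the pocket protein and E2F list lies at -0.79, and the G1 genes span -2.56 to 3.28.

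CDKN1C lies in an imprinted cluster, and its neighbours there were read in the same way. Of 15 genes of that cluster measured, 3 rose, 1 fell and 11 did not pass (median -0.10). SLC67A1, a transporter gene listed under its older symbol SLC22A18, gave 836, 911 and 883 in hypoxia and 369, 362 and 403 in normoxia (change 1.18, limma adjusted p = 0.000165). KCNQ1, a potassium channel gene, was at 1875 ± 53.8 in hypoxia and 920.4 ± 10.5 in normoxia (change 1.01, limma adjusted p = 0.000153), while its second probe set did not pass (change 0.27). KCNQ1OT1, the antisense transcript whose expression silences the cluster on the paternal copy, rose at 2 of 5 probe sets, by 0.46 at the brightest; its call there was lost without hypoxia replicate 1 (limma adjusted p = 0.0510). Whether the arrays tell KCNQ1OT1 from KCNQ1, which it overlaps, was not tested. NAP1L4 had no single direction over its 5 probe sets, of which 1 fell and 2 rose. The brightest, which counts above as the 1 gene that fell, fell by 0.32, while 2 others rose by 0.95 and 0.72 (limma adjusted p = 0.00115 and 0.00238). The fall was a call lost under 7 of 15 alternatives, among them leaving out hypoxia replicate 0 or 2 or normoxia replicate 1 or 2 (limma adjusted p = 0.0880, 0.107, 0.120 and 0.111). PHLDA2, an imprinted gene of the cluster named after its value was seen, was at 84.3 ± 28.1 in hypoxia and 101 ± 26.4 in normoxia and did not pass. The nearest measured gene on each side of CDKN1C, KCNQ1DN and SLC67A1-AS, were dim, with means of 6.25 and 18.4 in hypoxia and 12.1 and 17.9 in normoxia. KCNQ1DN did not pass, except as lower in hypoxia without hypoxia replicate 1 (limma adjusted p = 0.0163), and SLC67A1-AS did not pass.

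Around the other members, the nearest measured genes did not share one direction. They were not always adjacent, with 0 to 9 other genes in between, such as 9 for PARP11, 7 for MYEOV and 5 for SRSF3. Around CDKN2C, itself not measured, RNF11 rose by 0.53 and FAF1 did not pass (change 0.22). Beside CCND2, which fell, TIGAR fell by 1.61 and PARP11 did not pass (change 0.22). Beside CCND3, BYSL fell by 1.17 and TAF8 rose by 0.43. The call of TAF8 was lost with the replicate number as a block (limma adjusted p = 0.0766), without hypoxia replicate 1 or 2 (0.0857 and 0.0830) and without normoxia replicate 1 or 2 (0.0890 and 0.0907). TSPAN31 and MARCHF9, on either side of CDK4, rose by 0.79 and 0.63 while CDK4 fell by 1.55. SRSF3 fell by 0.66 and CPNE5 rose by 0.57 beside CDKN1A, which did not pass. The nearest measured pairs around CCND1 (MYEOV and LTO1), CDK6 (RBM48 and SAMD9) and CDC25A (MAP4 and CAMP) did not pass. Of those around CDKN1B, APOLD1 rose by 0.73 and GPR19 did not pass.

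Over the 6 arrays, the genes whose log2 values centred on normoxia lay nearest to those of CDKN1C by Euclidean distance were H2AC6 (distance 0.22), EFEMP2 (0.50) and HILPDA (0.53), among 19775 genes. HILPDA, a lipid droplet protein gene, rose by 3.58. Nearest to CDC25A were POLR1G (0.12), STEAP1 (0.19) and MET (0.21), with changes of -2.53, -2.59 and -2.60.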

How the data were processed

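Linear intensities of 54613 probe sets on 6 arrays were used as deposited. The sources used here do not say how the authors treated background, combined probes or scaled these values. RNA was, per the labels' protocols, isolated with an RNeasy kit and turned into biotin-labelled cRNA. Probe sets took their symbols from the platform annotation, updated through Entrez identifiers to RefSeq: 41091 carried 1 symbol, 1801 several and 11721 none here, and 41037 of the first kind were found in RefSeq. Groups came from the condition label and replicate numbers from the titles.

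Values were transformed to log2(intensity + 16), where the pseudocount of 16 damps the changes of dim probe sets. Hypoxia was compared with normoxia in limma 3.58.1 under R 4.3.3 (lmFit and eBayes, two-sided, no covariates), with Benjamini-Hochberg adjustment over all 54613 probe sets and a threshold of adjusted p = 0.05. Genes outside the 10 were read by their brightest probe set with 1 symbol. Family members were compared by exact permutation of within-array differences. The 10 genes, the related lists and the rule for named genes were chosen with earlier results of these data known. By that rule the text names every probe set of the 10 genes, up to 4 genes a list, taken by smallest adjusted p, CCNE1, CCNE2, CDK2, MYC, MAF and RB1, the 3 genes nearest to CDKN1C and to CDC25A, and the nearest measured gene on each side of a member. Marker genes of cell types and a few genes marked in the text as named after their values were seen fall outside it. The fit was tested on simulated data. It recovered 0 of 50 changes of 0.3, 7 of 50 of 0.5, 29 of 50 of 1 and 48 of 50 of 2. Of its 88 calls, 4 were false. Far fewer probe sets changed there than were called in the real data, so these shares do not give the power here. Alternatives covered the pseudocount, normalization, dim probe sets, an intensity trend, the replicate number as a block, left-out arrays, and reading a gene by 1 probe set or by its average.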

Additional observations from a re-analysis of the deposited data

How the results depend on the processing

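No result reversed direction past the threshold, and the numbers of member probe sets called stayed at 6 to 7 higher and 7 to 12 lower over 14 alternatives, beside 7 and 10 in the analysis as reported. With each array left out in turn they were 6 to 7 and 7 to 10. Among the brightest probe set of each gene, 3 were higher and 4 lower; tested over genes alone, 3 were higher and 5 lower, the addition being CCND2 (limma adjusted p = 0.0348). Over all probe sets 8481 were higher and 8289 lower, against 7289 and 9583 with median centring. Calls of CCND1 (both probe sets), CCND3 (201700_at), CDK4, CDKN1B, CDC25A (204695_at and 1555772_a_at) and CDKN1C (4 probe sets) held under every alternative run. The change of CDKN1C 216894_x_at ranged from 1.75 to 3.07. Among the related lists, the largest departures were 8 lower in place of 5 for other cyclins and kinases (3 without normoxia replicate 2), 5 higher in place of 3 and 8 lower in place of 5 for stability factors, 2 higher in place of 1 for other cyclins and for pocket proteins, 2 lower in place of 1 for transcription factors, and 0 or 2 lower in place of 1 in the imprinted cluster. PARP11, LTO1 and SAMD9 passed under 4, 2 and 2 alternatives. With the replicate number as a block, 7 member probe sets were higher and 10 lower, no member changed its call, and TAF8 and the plasma cell marker MZB1 lost theirs. Same-numbered arrays correlated in their deviations from group means at 0.21, 0.0082 and 0.19 over all probe sets, and at 0.46, 0.12 and 0.47 over those with a mean intensity of at least 64. The numbers were not taken to pair the arrays. Depth here is signal over background: no detection calls were used, so low intensities have no stated limit.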
